A study of Mus musculus with 12 samples.

Results

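The data are RNAseq libraries of Descemet membranes with their corneal endothelial cells (CEC). The donor mice, aged 10 weeks, carried a homozygous targeted deletion in *Slc4a11* (KO, *Slc4a11*-/-) or were wild type (WT, *Slc4a11*+/+), all C57BL/6. The 12 libraries form 4 groups of 3, which are KO males, WT males, KO females and WT females. The sample records describe the membranes of a genotype as pooled and the methods describe them as taken in pairs, so how many mice stand behind a library is not settled here. The 8 genes described are 4 fatty acid desaturases, *Fads1*, *Fads2*, *Fads3* and *Fads6*, and 4 elongases, *Elovl1*, *Elovl4*, *Elovl5* and *Elovl7*, found by symbol among the 15838 genes of the deposited tables, where all 8 were present. The set was chosen by the fold change of *Fads6* between KO and WT in the authors' own comparisons, and its relatives were added by family. Those comparisons (fold changes and p-values) were not used here, and no values per library or per group were analysed, so KO and WT, or males and females, are not compared for any gene.

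What could be described is the level of each gene, as the authors' mean over all 12 libraries. It is given as log2 CPM, and as CPM, which here means 2 raised to that mean. Both express the reads of a gene relative to the size of its library, as adjusted by the authors' TMM scaling (trimmed mean of M values). Each mean covers both genotypes and both sexes, so a gene that differs between the groups has a mean that belongs to none of them. No spread between libraries goes with a mean, the depth of the libraries is unknown here, and no difference between genes was tested. A longer transcript gives more reads, so genes were set against each other per kilobase (kb) of their longest annotated transcript. The loss of *Slc4a11* in the KO libraries was not checked, for the same reason.

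Desaturases place double bonds in fatty acyl chains and elongases lengthen the chains, both in the endoplasmic reticulum. Together they turn the essential fatty acids of the diet into the long polyunsaturated fatty acids of membrane phospholipids, and make the very long chains of ceramides. Desaturases take electrons from cytochrome b5 and its reductases. An elongase catalyses the condensation that starts each round of elongation, and other enzymes complete the round.

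CEC markers were high in the libraries, which bears on the label of the tissue. All 7 of 7 markers of corneal endothelium were listed, from 117 CPM per kb (*Cdh2*, N-cadherin) to 2009 CPM per kb (*Aqp1*, a water channel). The 3 stromal markers lay between 147 (*Lum*, lumican) and 616 CPM per kb (*Aldh3a1*, a corneal aldehyde dehydrogenase), above every one of the 8 genes. The 4 epithelial markers lay between 0.225 (*Cdh1*) and 15.8 CPM per kb (*Krt5*). Pigment cell markers reached at most 2.77 (*Dct*), leukocyte markers 2.06 (*Cd68*, with *Cd3e* not analysed here) and lens markers 1.31 CPM per kb (*Cryaa*). Which cells the reads of the 8 genes came from was not tested, and in bulk RNA fewer cells of a type and less RNA per cell cannot be told apart.

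The 8 genes spanned a 27.0-fold range per kb of the longest transcript, in the order *Elovl7*, *Elovl5*, *Fads2*, *Fads1*, *Fads3*, *Elovl1*, *Fads6* and *Elovl4*. Of the 8 genes, 6 had a mean above that of the median gene, which was 3.76 log2 CPM, and 2 were below it, *Fads6* and *Elovl4*. Per kb, again 6 of the 8 were above the median gene. Per kb of the shortest annotated coding transcript the range was 67.7-fold, from *Elovl5* to *Fads6*, with *Elovl7* in place 5. For *Elovl5*, *Fads1*, *Fads2*, *Fads3* and *Elovl4* that transcript is shorter than the longest coding sequence of the gene.

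**Figure D1:**
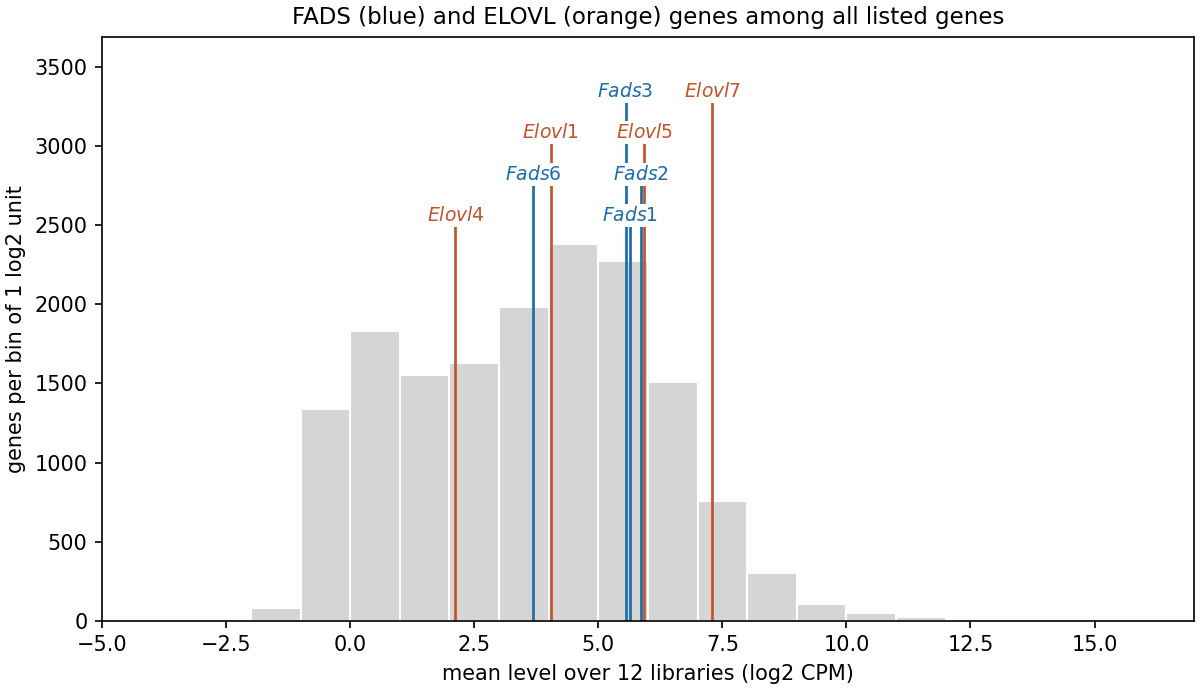
Mean level over the 12 libraries in log2 CPM (x axis) of the 15838 listed genes, counted in bins of 1 log2 unit (y axis, grey bars), with a line at the mean of each desaturase (blue) and elongase (orange). *Fads6* at 3.68 stands next to the median gene at 3.76, while *Fads1*, *Fads2* and *Fads3* stand close together between 5.55 and 5.86 and *Elovl7* at 7.29 stands highest of the 8.

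*Fads6* (ENSMUSG00000044788), the least studied of these desaturases, spans 115279622 to 115297663 of chromosome 11, minus strand (GRCm38, GENCODE M21). Its mean was 3.68 log2 CPM, or 12.9 CPM, in place 8084 of the 15838 genes, with 49.0% of them lower. The genes directly above and below it in level were *Zfp870* at 3.69 and *Jagn1* at 3.68 log2 CPM. Per kb of its longest transcript of 4951 bases it came to 2.60 CPM, with 37.8% of the 15824 genes that have an annotated length lower. *Fads6* thus ranked lower per length than by CPM. Because *Fads6* was chosen by its fold change between KO and WT, its mean, and ranks and ratios from it, may belong to neither genotype. Of the bases of its transcript, 1026 are coding and 3925 are not.

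*Fads1*, *Fads2* and *Fads3* were closely matched in level and above *Fads6*. *Fads2* (ENSMUSG00000024665), whose enzyme makes the first desaturation of linoleic and α-linolenic acid, had a mean of 5.86 log2 CPM, or 58.0 CPM, with 80.7% of genes lower. *Fads1* (ENSMUSG00000010663), whose enzyme makes the later desaturation that gives arachidonic and eicosapentaenoic acid, had 5.64 log2 CPM, or 49.7 CPM, with 77.7% lower. *Fads3* (ENSMUSG00000024664), whose enzyme desaturates the sphingoid base of ceramides, had 5.55 log2 CPM, or 46.8 CPM, with 76.6% lower. Per kb these were 18.4, 14.4 and 12.7 CPM for *Fads2*, *Fads1* and *Fads3*. Neighbours in this order differed by 1.28-fold (*Fads2* to *Fads1*) and 1.13-fold (*Fads1* to *Fads3*), and with no spread known their order is not settled. The median of the 3 was 5.53 times *Fads6* per kb of the longest transcript and 45.3 times per kb of the shortest coding one. The shortest coding transcripts of these 3 are shorter than their longest coding sequences. With the longest transcript, *Fads6* made up 5.40% of the summed level per kb of the 4 desaturases.

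*Elovl7* (ENSMUSG00000021696), an elongase of long saturated and unsaturated acyl-CoAs, had the highest level of the 8 by CPM and per kb of the longest transcript. It lies on the plus strand of chromosome 13 from 108214404 to 108285683. The mean was 7.29 log2 CPM, or 157 CPM, in place 949 of 15838, with 94.0% of genes lower. Its neighbours in level were *Bmpr1a*, a bone morphogenetic protein receptor, just above, and *Lmna*, which encodes lamin A, just below, both at 7.29 log2 CPM. Per kb of the longest transcript *Elovl7* came to 39.1 CPM, 1.79 times *Elovl5* and 15.1 times *Fads6*. The direction against *Elovl5* turned with the shortest coding transcript, where *Elovl5* came to 176 CPM per kb and *Elovl7* to 39.1. That *Elovl5* transcript has 346 bases, fewer than the 897 of the gene's longest coding sequence, so it cannot hold that sequence. *Elovl7* has only 1 coding transcript. With the longest transcript it held 54.7% of the summed level per kb of the 4 elongases.

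The remaining elongases covered a wide range. *Elovl5* (ENSMUSG00000032349), which lengthens the polyunsaturated products of the desaturases, had a mean of 5.93 log2 CPM, or 60.8 CPM, with 81.6% of genes lower, and 21.9 CPM per kb. It lies on the plus strand of chromosome 9 from 77917364 to 77984519. *Elovl1* (ENSMUSG00000006390), which makes saturated and monounsaturated very long chains for ceramides, had 4.04 log2 CPM, or 16.5 CPM, with 53.8% lower. Because its longest transcript has only 1811 bases, *Elovl1* came to 9.10 CPM per kb, 3.51 times *Fads6*, which is next in the order. *Elovl4* (ENSMUSG00000032262), the elongase of the very longest chains, known for its role in photoreceptors and skin, was the lowest, at 2.12 log2 CPM, or 4.35 CPM, with 31.6% of genes lower. Per kb it came to 1.45 CPM. *Elovl1* lies on the plus strand of chromosome 4 from 118428093 to 118432953 and *Elovl4* between 83778692 and 83806277 of chromosome 9, minus strand.

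**Figure D2:**
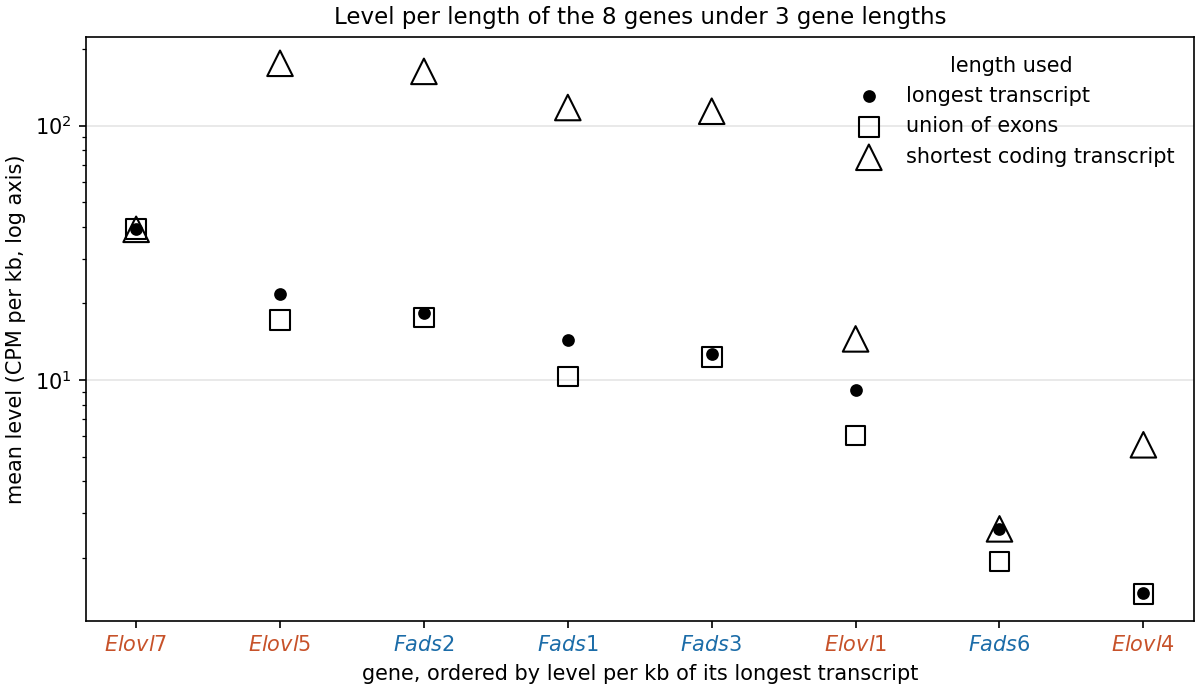
Mean level in CPM per kb on a log axis for the 8 genes, ordered by the level per kb of the longest annotated transcript (filled circles), with the levels per kb of the union of exons (open squares) and of the shortest coding transcript (open triangles). *Elovl7* stays at 39.1 under every length. The triangles of *Elovl5*, *Fads2*, *Fads1* and *Fads3* lie between 114 and 176 because their shortest annotated coding transcripts have only 346 to 422 bases. Those lengths are below the 897 to 1347 bases of their longest coding sequences.

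The gene models, which had no part in the choice of the 8 genes, set *Fads6* apart from *Fads1*, *Fads2* and *Fads3*. *Fads1*, *Fads2* and *Fads3* each had 12 coding exons, and in every pair of them 10 of the 12 had the same length at the same place. Those lengths ran from 49 to 198 bases, and only the first and the fifth coding exon differed. *Fads6* had 6 coding exons of 147 to 188 bases, and none matched the exon at the same place in *Fads1*, *Fads2* or *Fads3*. It encodes 342 codons, against 447 in *Fads1*, 444 in *Fads2* and 449 in *Fads3*. Among the elongases, *Elovl1* and *Elovl7* shared the length of 5 of their 7 coding exons, with 279 and 281 codons. *Elovl4* and *Elovl5*, with 6 and 7 coding exons, shared 2 lengths at the same place, 188 and 172 bases.

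**Figure D3:**
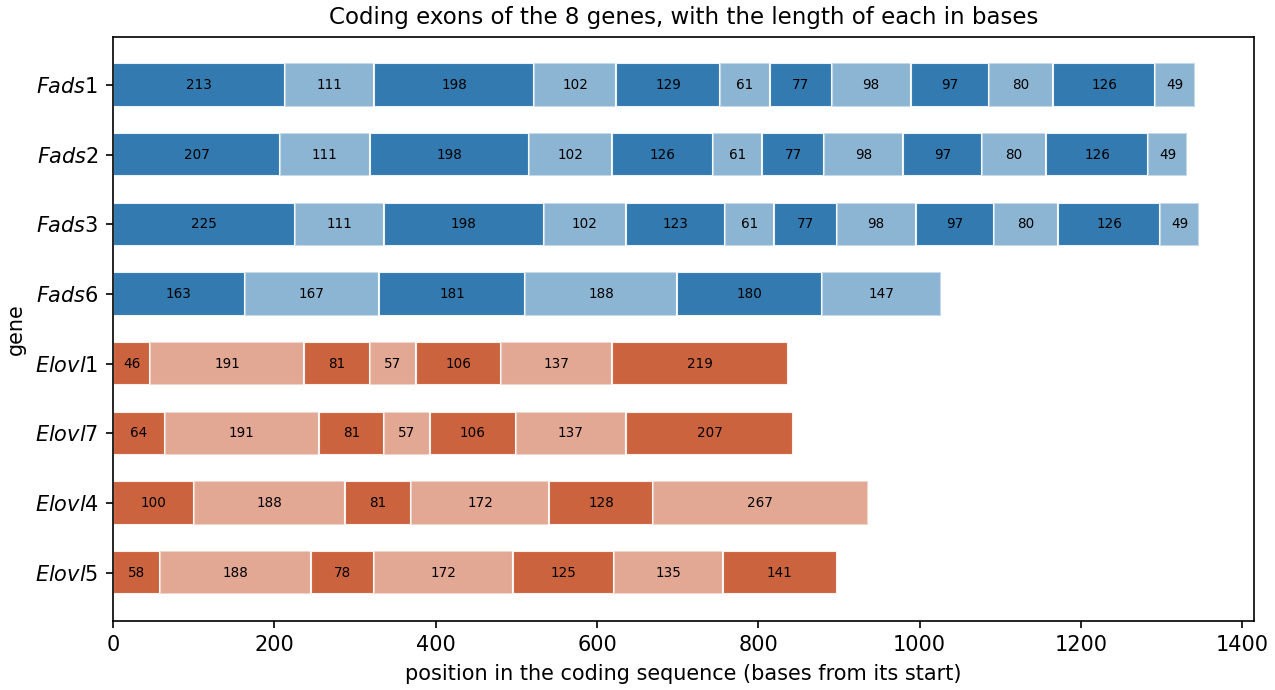
Coding exons of each gene in order (boxes to scale, x axis in bases from the start of the coding sequence, the number in each box its length in bases), from the annotated transcript with the longest coding sequence. The rows of *Fads1*, *Fads2* and *Fads3* match except in 2 boxes, the first and the fifth, *Fads6* has 6 boxes with none in register, and *Elovl1* and *Elovl7* share their second to sixth boxes.

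*Fads1*, *Fads2* and *Fads3* also lie side by side on chromosome 19, within 155309 bases, and *Fads6* is elsewhere. *Fads3* is on the plus strand from 10041569 to 10060110, *Fads2* on the minus strand from 10062765 to 10101746, and *Fads1* on the plus strand from 10182888 to 10196877. The ends of *Fads3* and *Fads2* face each other across 2654 bases, and the starts of *Fads2* and *Fads1* are 81142 bases apart and point away from each other. No other gene with a value here lies between or within them. Of the 8 genes, *Elovl1* alone had exonic bases in common with another annotated gene, 53 bases or 1.94% of its exons, with *Cdc20* on the opposite strand, which was not analysed here.

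Genes that work with the 8 enzymes were listed at levels from below *Elovl4* to above *Elovl7*. Of 3 other elongases 1 was listed, *Elovl6*, which lengthens palmitate, at 5.33 CPM per kb, above *Fads6* and below *Elovl1*. *Elovl2*, which acts late in the synthesis of docosahexaenoic acid, and *Elovl3* were not analysed here. Of 7 other desaturases 5 were listed, from *Degs2* at 0.572 to *Scd2*, a stearoyl-CoA desaturase, at 83.1 CPM per kb, while *Fads2b* and *Scd3* were not analysed here. *Scd2* was thus above all 8 genes. A gene without a value here may be expressed or not, and no level is given for it.

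The other enzymes of the elongation round were listed for 6 of 7 genes, from *Hacd1* at 0.741 to *Hacd3*, an acyl-CoA dehydratase, at 65.9 CPM per kb, with *Tecrl* not analysed here. All 6 electron donor genes were listed, from *Cyb5r2* at 0.360 to *Cyb5r3*, a cytochrome b5 reductase, at 63.1 CPM per kb. The 5 acyl-CoA synthetases of long chains lay between 1.79 (*Acsl6*) and 9.84 CPM per kb (*Acsl5*), in the range of the lower members. The 4 genes of peroxisomal chain shortening, which trims elongated chains, lay between 10.0 (*Acaa1a*) and 51.0 CPM per kb (*Hsd17b4*).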

How the data were processed

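CEC with Descemet membrane from 12 libraries in 4 groups of 3 (genotype by sex) were sequenced from total RNA with a stranded low-input kit. The authors aligned reads to GRCm38 with Hisat2, scaled counts to CPM with TMM, and fitted limma with voom weights. The methods name CPM > 1 among the thresholds for differential expression. Of the 15838 genes listed, 14407 had a mean of at least 1 CPM and the rest were lower. A cut at 1 CPM on this mean therefore did not set the list. Whether the threshold was applied to the list in another form is not given in the sources used here. Nor are the versions, the gene counter and its strand setting. The authors deposited 3 tables (genotype, sex, interaction) of the same 15838 genes, each with a mean level over all libraries on the log2 scale and 5 columns of their own comparison (log2 fold change, moderated t, p-value, adjusted p-value and B). Those columns were not used, since they hold the study's findings. The mean levels were equal in the 3 tables (largest difference 0). No column belongs to a single library, and the reads were not used here, so depth, spread and group values were not analysed and no test was run.

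Computed here (Python 3.11.15, pandas 2.3.3, numpy 2.4.6) were CPM as 2 to the power of the mean, the percent of genes with a lower mean, and CPM per kb from GENCODE M21 (GRCm38), which gave a length for 15824 genes and none for 14. Coding exons are those of the protein-coding transcript with the longest coding sequence. Ranks and lengths were tested on simulated data. The 8 genes and the lists of related and marker genes were chosen with earlier results of these data known. The text names every member, the highest and the lowest gene of each list per kb, genes of a list without a value here and the genes next to *Fads6* and *Elovl7* in level. One marker list is not reported here. Alternatives were other gene lengths, other sets of genes to rank against, and the other tables.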

Additional observations from a re-analysis of the deposited data

How the results depend on the processing

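No fold change, group difference or test is given, so these limits concern levels only, and how far any mean lies from the level in KO or WT, or in either sex, is not known from it. Leaving out a replicate was not run, since the mean levels are over all libraries. The planned comparison of protein sequences was not run, since no protein table was used here. All 8 mean levels were the same in the 3 tables. The number of genes above the median gene, 6, was 5 when only genes of at least 1 CPM, or only the 12994 protein-coding genes, were ranked, with *Elovl1* then below the median. The place of each gene fell by 0.595 to 6.80 percentage points with the first of these sets and by 1.26 to 11.7 with the second.

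Ranked per kb of the longest transcript, 6 genes were again above the median, and the places moved by -11.1 to 13.3 percentage points. With the union of exons *Elovl7* remained first and *Fads6* seventh of the 8, and the ratio per kb to *Fads6* became 20.2 for *Elovl7* and 6.39 for the median of *Fads1*, *Fads2* and *Fads3*. With the shortest annotated coding transcript, levels per kb rose up to 8.97-fold, *Elovl7* fell to place 5 and *Fads6* to place 8, and *Fads6* was exceeded 45.3-fold by the median of *Fads1*, *Fads2* and *Fads3*. Those short transcripts have only 346 to 422 bases in *Fads1*, *Fads2*, *Fads3* and *Elovl5*, whereas the 1 coding transcript of *Fads6* has 4951. They are shorter than the longest coding sequences of their genes, which have 897 to 1347 bases. The change in order therefore rests on transcript models that cannot hold those coding sequences.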
